A study of Sus scrofa with 17 samples.

Results

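ACSM5 and CRYM are 2 of the 35670 gene rows in a count table from the right ventricle of pigs. They were chosen by name because earlier values of these same libraries showed them high in some animals and near the detection floor in others. Their levels, their differences between groups and their likeness to each other are therefore given as descriptions, with no test. The 17 libraries were made from heart muscle of 17 pigs (Sus scrofa), 1 per animal, and all animals shared pressure overload of the right ventricle. They differed in treatment, which was cord blood mononuclear cells given into the myocardium repeatedly (multidose, n = 7), the same cells given once (single dose, n = 5) or vehicle (vehicle control, n = 5). Tissue was taken at more than 1 time after treatment per the series text, but no library's time, sex, weight, batch or age was available to the comparisons here, and no animal without overload was analysed here. Library names begin with M1 (5 libraries, of which 4 multidose and 1 single dose), M8 (8 libraries, of all 3 groups) or M9 (4 libraries, of all 3 groups), with no meaning stated for these starts. Some names, in all 3 groups, also end in _R, for which the sample labels used here give no meaning.

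ACSM5 (ENSSSCG00000026453) encodes a mitochondrial enzyme of the medium-chain acyl-CoA synthetase family. These enzymes join medium-chain fatty acids to coenzyme A, which commits them to oxidation or to conjugation with glycine. CRYM (ENSSSCG00000007849) encodes mu-crystallin, a cytosolic protein that binds thyroid hormone in the presence of NADPH and also reduces cyclic ketimines formed in lysine metabolism. Thyroid hormone acts on heart muscle through nuclear receptors that raise the fast myosin gene MYH6 and the calcium pump gene ATP2A2. Both genes lie on pig chromosome 3, ACSM5 at 25393121 to 25422551 and CRYM at 24815010 to 24835837 (RefSeq gene bounds on Sscrofa11.1), 557 kb apart.

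Libraries held 21754800 to 61144663 counts, and mitochondrially encoded genes took 12.4% to 23.1% of them. Ventricular muscle markers were abundant in every library. The 6 genes of that list (MYL2, MYL3, MYH7, IRX4, HEY2 and TNNI3) summed to between 29444 and 52347 CPM (counts scaled to library size) in vehicle controls, 41646 to 51319 CPM in single dose and 41000 to 56740 CPM in multidose libraries. Markers of liver and kidney, organs where acyl-CoA synthetases of this family are known to be abundant, were low beside the ventricular markers. The hepatocyte list (7 of 8 with a row) summed to 23.2 to 49.1 CPM over all libraries. APOA2, AHSG and TTR had 0 counts in every library, so other markers of that list made up its sum. Skeletal muscle markers, described further below, summed to 2.51 to 46.9 CPM. The kidney list summed to 0.932 to 4.26 CPM, with UMOD at 0 counts throughout. In tissue RNA, fewer cells of a type and less RNA per cell cannot be told apart. CPM values here are scaled by the trimmed mean of M-values (TMM), intervals are exact 95% Poisson intervals, and both the intervals and the floor of 3 counts cover counting error only.

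ACSM5 was present at a clear level in 3 libraries, all of them single dose. It measured 7.87 CPM in single dose 2 (381 counts, interval 7.10 to 8.70), 10.6 CPM in single dose 3 (421 counts, interval 9.59 to 11.6) and 6.93 CPM in single dose 4 (340 counts, interval 6.22 to 7.71). The other single dose libraries were low, at 0.276 CPM in single dose 1 (6 counts, interval 0.101 to 0.601) and 0.0184 CPM in single dose 5 (1 count, interval 0.000466 to 0.102). The group therefore split into libraries near 10 CPM and libraries near nothing, and its mean of 5.14 ± 4.75 CPM (SD, n = 5) describes neither.

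Multidose libraries held 0 to 5 counts of ACSM5 each. In order of their replicate numbers, multidose 1 to 7 measured 0.0847, 0.0896, 0.0484, 0.0711, 0, 0.0688 and 0.101 CPM. Vehicle controls 1 to 5 measured 0.0172, 0.0818, 0.0595, 0.0375 and 0 CPM, from 0 to 4 counts each. All 12 of these libraries lay below the lowest of the 3 high single dose libraries, and the counting intervals of these 12 overlapped one another. For the 0 counts in multidose 5 and in vehicle control 5, the floor of 3 counts is worth 0.0822 and 0.0621 CPM, and the intervals reach 0.101 and 0.0763 CPM. Of all 1176 ACSM5 counts in the table, 1142 (97.1%) came from the 3 high libraries, and the lowest of those 3 stood 25.1-fold above the next library, single dose 1.

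The 3 high libraries are the single dose libraries whose names begin with M8. Among libraries with such names, ACSM5 was above 1 CPM in 3 of 3 single dose, 0 of 2 multidose and 0 of 3 vehicle control libraries. The single dose libraries with M1 and M9 names, 1 of each, were both low. The 3 high libraries held 40621934 to 50263800 counts, within the range of the low ones. KDM5D, a Y-linked histone demethylase gene, measured 0 CPM in single dose 2 and 3 and 5.02 CPM in single dose 4, so both states of that gene occur among the high libraries, and among the low libraries it ranged from 0 to 5.66 CPM. The names of all 3 high libraries end in _R, as do those of some low libraries. The part of the M8, M9 and M1 names, and of the _R ending, in the ACSM5 pattern was not tested.

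**Figure D1:**
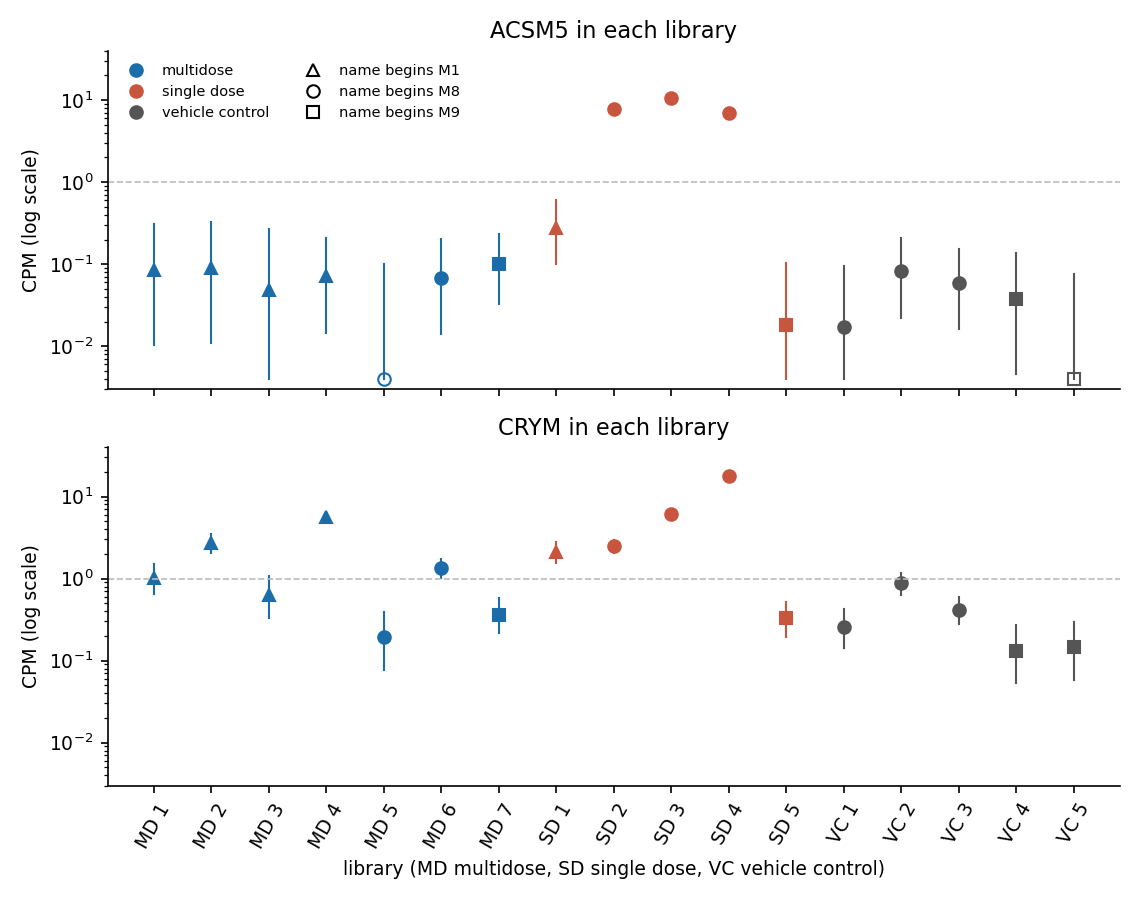
Level of ACSM5 (top) and CRYM (bottom) in each of the 17 libraries, in CPM on a log axis, with exact 95% Poisson intervals as vertical bars. Colour gives the group, marker shape the start of the library name, open markers at the lower edge stand for 0 counts, and the dashed line marks 1 CPM, which 3 libraries exceed for ACSM5 and 8 for CRYM.

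Rows with such a pattern were counted with limits chosen after the data were seen. ACSM5 was chosen for this pattern, so its place in the count supports nothing. Of 35670 rows, 10374 held no count and 11143 reached 5 CPM (without TMM scaling) in at least 2 libraries. Of the 11143, 2 did so while staying under 0.5 CPM in at least 12 libraries. One was ACSM5 and the other a row with no gene name (ENSSSCG00000050056) that was high in 5 other libraries, namely vehicle control 1, 4 and 5, multidose 7 and single dose 5. With a limit of 2 CPM in place of 5, there were 6 such rows, and ACSM5 was again among them.

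CRYM also varied widely between animals, but with no gap as wide as that of ACSM5. Single dose 1 to 5 measured 2.12, 2.50, 6.13, 17.7 and 0.331 CPM, from 18 to 868 counts. Multidose 1 to 7 measured 1.02, 2.69, 0.630, 5.67, 0.192, 1.33 and 0.363 CPM. Vehicle controls 1 to 5 measured 0.258, 0.879, 0.417, 0.131 and 0.145 CPM. Single dose 4 was the highest library and stood 135-fold above the lowest, vehicle control 4. All 5 vehicle controls lay under 1 CPM, whereas 4 of 5 single dose and 4 of 7 multidose libraries were above it.

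The groups followed the order single dose, multidose, vehicle control for CRYM, with means of 5.76 ± 7.00 CPM (SD, n = 5), 1.7 ± 1.94 CPM (SD, n = 7) and 0.366 ± 0.309 CPM (SD, n = 5). Neighbours in that order did not separate beyond their spread. Single dose libraries (0.331 to 17.7 CPM) overlapped multidose libraries (0.192 to 5.67 CPM), and multidose 3, 5 and 7 lay within the range of the controls. Single dose 5 also lay within the range of the controls. The log2 fold change in the edgeR fit was 3.97 (SE 1.01) for single dose against vehicle control, 2.22 (SE 0.92) for multidose against vehicle control and -1.76 (SE 0.81) for multidose against single dose. These comparisons share their libraries and are not independent of one another. Individual libraries moved the values. Single dose against vehicle control gave 2.91 without single dose 4 and 4.57 without vehicle control 2. Multidose against vehicle control gave 1.47 without multidose 4, 2.81 without vehicle control 2 and 0.78 in libraries with M8 and M9 names alone. Multidose against single dose gave -0.69 without single dose 4, -2.50 without multidose 4 and -3.40 in the M8 and M9 libraries.

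For ACSM5 the same fit, with the gene kept past the low-count filter, gave 6.92 (SE 1.15) for single dose against vehicle control and -6.21 (SE 0.99) for multidose against single dose. Both values rest on single dose 2, 3 and 4. No fold is given for multidose against vehicle control, since both groups averaged at or under 3 counts per library. The low-count filter asks for enough counts in at least 5 libraries, and ACSM5, high in 3, was left out of the 15884 genes tested.

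CRYM also differed by the start of the library name, with overlap. The M9 libraries had the lowest median, 0.238 CPM, and measured 0.131 to 0.363 CPM (n = 4, 1 multidose, 1 single dose and 2 vehicle controls). Within that range also lay multidose 5 and vehicle control 1, which have M8 names (0.192 and 0.258 CPM). The M1 libraries, which hold no control, measured 0.630 to 5.67 CPM (n = 5) and the M8 libraries 0.192 to 17.7 CPM (n = 8). Within the M8 names the 3 single dose libraries (2.50 to 17.7 CPM) lay above the 2 multidose libraries (0.192 and 1.33 CPM) and the 3 controls (0.258 to 0.879 CPM). The M9 libraries showed no such order, with 0.331 CPM in the single dose, 0.363 CPM in the multidose and 0.131 and 0.145 CPM in the control libraries.

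ACSM5 and CRYM were high in overlapping but unequal sets of animals. All 3 libraries with ACSM5 above 1 CPM also had CRYM above 1 CPM, while 5 libraries had CRYM above 1 CPM with ACSM5 near the floor. The clearest of the 5 was multidose 4, with 5.67 CPM of CRYM and 3 counts of ACSM5. Among the 3 libraries high in both, the order differed, since single dose 3 led for ACSM5 and single dose 4 for CRYM. The libraries form separate clusters for ACSM5, so likeness within the 14 low libraries matters beside the pooled value. The Spearman rank correlation was 0.825 over 17 libraries, 0.748 within the 14 low libraries and 0.711 within the 9 of those with M8 or M9 names. The ranks of ACSM5 among the low libraries rest on 0 to 6 counts each, and 1 count is worth 0.0237 to 0.0484 CPM in the M1 libraries against 0.0149 to 0.0274 CPM in the others, so these ranks also carry depth. Without single dose 3 and 4, the libraries farthest from the median of CRYM, the rank correlation was 0.763 (n = 15). Of 15883 other tested genes, 4 had a rank correlation with CRYM at least as high as that of ACSM5. Both genes were chosen for their levels in these libraries, so this place supports nothing.

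**Figure D2:**
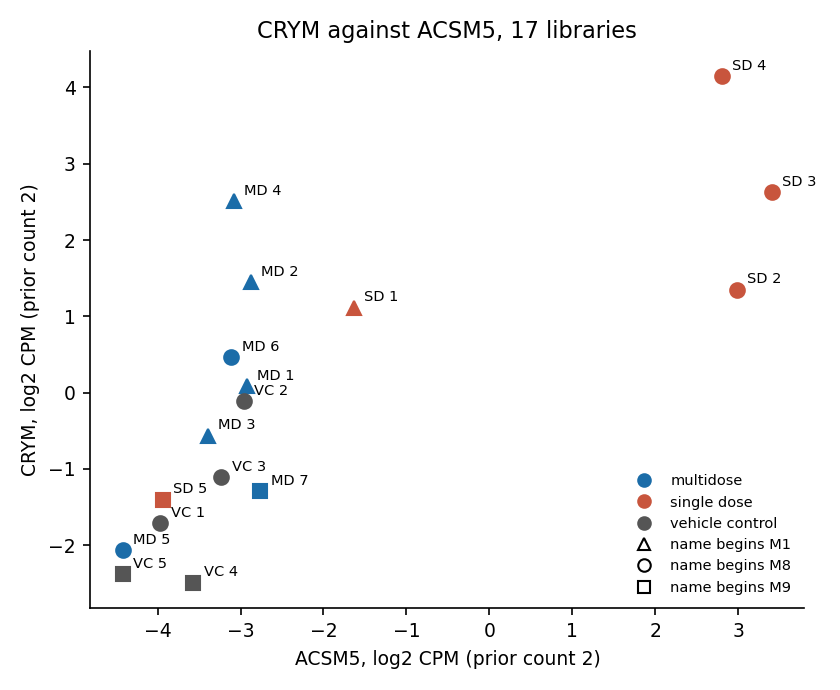
CRYM against ACSM5 in the 17 libraries, both as log2 CPM with a prior count of 2, with colour for the group and marker shape for the start of the library name. Single dose 2, 3 and 4 stand alone at the right for ACSM5, while multidose 4 and 2 and single dose 1 reach comparable CRYM levels at low ACSM5.

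The genes around ACSM5 and CRYM were examined next, since both lie in the same stretch of chromosome 3. RefSeq lists 45 other genes within 1 Mb of either or between them. Of these, 32 had a row in the table and 22 passed the low-count filter. Between the 2 genes, RefSeq lists 12, of which 11 had a row and 8 were tested. Closest to CRYM on the side of ACSM5 are ANKS4B (0.609 kb away, 9 counts in all libraries) and the egg coat gene ZP2 (0 counts). Then come LDAF1 and DNAH3. LDAF1 (ENSSSCG00000031876) is the symbol of a partner of seipin in lipid droplet assembly. It was placed through its older symbol, TMEM159, which RefSeq gives at 24876631 to 24910841, 40.8 kb from CRYM, and annotates in the pig as a long noncoding RNA. DNAH3 (ENSSSCG00000046747, 24911160 to 25127017) encodes an axonemal dynein heavy chain and begins 75.3 kb from CRYM.

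LDAF1 followed CRYM across animals at a much higher level. Single dose 1 to 5 measured 50.2, 37.4, 43.5, 103 and 16.7 CPM of LDAF1. Multidose 1 to 7 measured 22.4, 48.0, 23.4, 48.1, 19.8, 67.7 and 12.2 CPM, and vehicle controls 1 to 5 measured 28.2, 81.9, 40.7, 16.8 and 12.5 CPM. Single dose 4 was again the highest. The 4 M9 libraries were the 4 lowest of the 17 (12.2 to 16.8 CPM, against 19.8 to 103 CPM in the other 13), whatever their group. The rank correlation with CRYM was 0.752 over 17 libraries, 0.755 in the 12 M8 and M9 libraries and 0.707 without single dose 3 and 4 (n = 15).

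DNAH3 ordered the libraries much as LDAF1 did. Single dose 1 to 5 measured 2.21, 1.14, 2.21, 6.73 and 0.368 CPM. Multidose 1 to 7 measured 0.720, 2.24, 0.533, 2.37, 0.685, 4.77 and 0.423 CPM, and vehicle controls 1 to 5 measured 1.12, 4.23, 2.28, 0.506 and 0.352 CPM. The M9 libraries were again the 4 lowest, at 0.352 to 0.506 CPM. Its rank correlation was 0.733 with CRYM and 0.951 with LDAF1 (n = 17). The bounds of LDAF1 and DNAH3 are 319 bases apart in RefSeq, and the strand setting of the counting is not given in the sources used here, so reads that run from 1 of them into the other cannot be told apart.

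CRYM and its neighbours parted in some animals. Vehicle control 2 and multidose 6 ranked next after single dose 4 for LDAF1, at 81.9 and 67.7 CPM, yet measured 0.879 and 1.33 CPM of CRYM. Conversely, single dose 3 and multidose 4 ranked next after single dose 4 for CRYM, at 43.5 and 48.1 CPM of LDAF1. Once group means were taken out of the log2 CPM, Pearson's r with CRYM was 0.832 for LDAF1 and 0.832 for DNAH3. With ACSM5, the rank correlation was 0.499 for LDAF1 and 0.482 for DNAH3. Which gene was most like CRYM depended on the measure. ACSM5, the farthest of the 3 on the chromosome, was highest by rank (0.825) and lowest by Pearson's r with group means taken out (0.667). It was also lowest by r without single dose 3 and 4 (0.550, against 0.704 for LDAF1 and 0.638 for DNAH3, n = 15).

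**Figure D3:**
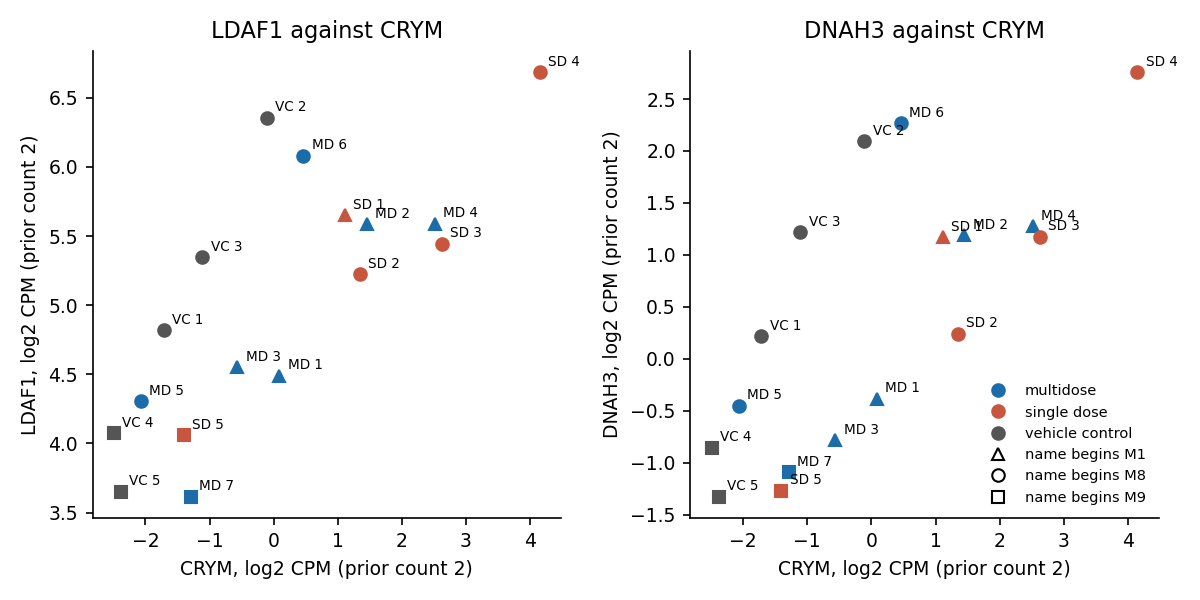
LDAF1 (left) and DNAH3 (right) against CRYM in the 17 libraries, as log2 CPM with a prior count of 2, with colour for the group and marker shape for the start of the library name. Single dose 4 is at the upper right and the 4 M9 libraries at the lower left of both panels, while vehicle control 2 and multidose 6 lie above the other libraries of similar CRYM level.

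The likeness did not extend over the whole stretch. The next gene, LYRM1, a mitochondrial LYR motif gene that begins 3.13 kb beyond DNAH3, had a rank correlation of 0.230 with CRYM. Farther on, the values were -0.429 for DCUN1D3, a regulator of cullin neddylation, -0.142 for the exonuclease gene REXO5 and -0.203 for ERI2. The last tested before ACSM5 were ACSM3, at 0.272, and the RNA acetylation cofactor gene THUMPD1, at 0.277. Of the 22 tested neighbours, 2 exceeded 0.5 with CRYM, LDAF1 and DNAH3, which ranked 22 and 31 among 15883 tested genes. Over all those genes 4.29% exceeded 0.5. The median of the neighbours was -0.096 with CRYM and -0.051 with ACSM5, beside -0.0025 and 0 over all genes. Immediately beyond ACSM5, PDILT had 1 count in all libraries, and UMOD, GP2 and GPR139 had 0.

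On the far side of ACSM5 the nearest tested genes were the receptor gene GPRC5B, with a rank correlation of -0.650 with CRYM and -0.558 with ACSM5, and IQCK (-0.110 with CRYM), followed by KNOP1 (-0.566) and VPS35L (0.319). On the far side of CRYM they were PDZD9 (0.10), MOSMO (-0.037), the elongation factor kinase gene EEF2K (-0.235) and the RNA polymerase III subunit gene POLR3E (-0.240).

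**Figure D4:**
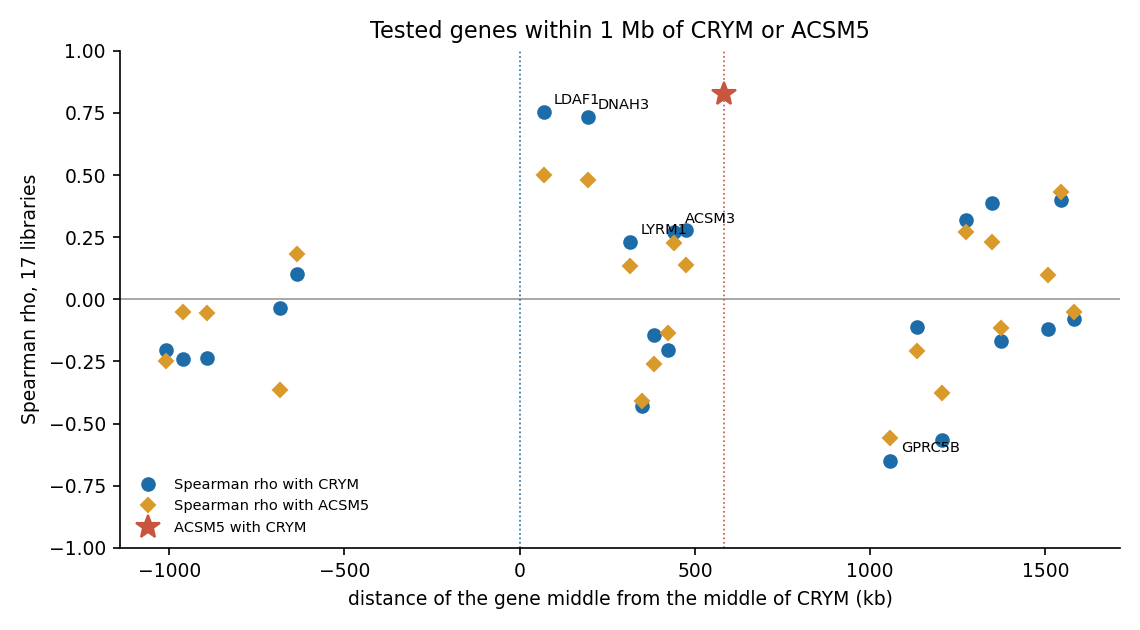
Spearman rank correlation over 17 libraries of each tested gene within 1 Mb of CRYM or ACSM5, with CRYM (circles) and with ACSM5 (diamonds), against the distance of its middle from the middle of CRYM in kb. LDAF1 (0.752) and DNAH3 (0.733) stand apart from the other neighbours, and the star shows ACSM5 with CRYM (0.825).

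None of the 22 tested neighbours passed in the comparisons of the dosing groups. By edgeR's quasi-likelihood test with Benjamini-Hochberg adjustment over 15884 genes, 0 genes passed in each of the 3 comparisons (0.00% called), so the neighbours' share equals the background. At an unadjusted p under 0.05 by edgeR stood 1997 genes for multidose against vehicle control, 836 for single dose against vehicle control and 335 for multidose against single dose. DESeq2 called 8, 10 and 0 genes in the same order, none of them a neighbour, and limma-voom 0 in each. At an unadjusted p under 0.05 by edgeR stood 4, 3 and 2 of the 22 neighbours (18.2%, 13.6% and 9.09%), beside 12.6%, 5.26% and 2.11% of all genes tested. LDAF1 had a log2 fold change of 0.48 for single dose against vehicle control (adjusted p = 0.909 by edgeR) and -0.06 for multidose against vehicle control (adjusted p = 0.970 by edgeR). DNAH3 had 0.58 (adjusted p = 0.918 by edgeR) and -0.0031 (adjusted p = 0.999 by edgeR). For both genes the ranges of the 3 groups overlapped, with vehicle control 2 among the highest libraries.

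Among genes anywhere in the genome, those most like each member were named by rank correlation over 17 libraries, taken from the 11425 tested genes that carry a symbol and average 1 CPM or more. For CRYM these were ATP8A1 (0.846), a phospholipid flippase gene, SLIT2 (0.833), a guidance ligand of ROBO receptors, and HS3ST5 (0.824), a heparan sulfate sulfotransferase gene. Others among the 10 were the ribosome-associated chaperone gene DNAJC2, the mitochondrial carrier gene SLC25A14, the complement gene C9, ELL3, CARF and UACA (0.779 to 0.816). ATP8A1 ranged from 2.90 to 15.7 CPM and SLIT2 from 1.72 to 9.94 CPM, far narrower than CRYM. The genes that ran most against CRYM were DDX54 (-0.885), a nucleolar helicase gene, NCOA5 (-0.811), ITPKC, TMEM145 and PAFAH2 (-0.777).

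For ACSM5 the genes most alike were LRRFIP2 (0.852), HS3ST5 (0.842), CRYM (0.825), the histone deacetylase gene HDAC9 (0.815), SEPTIN6, AKAP9, UNC13B, ST3GAL6, MSANTD4 and PLEKHA7 (0.750). None of them shared its gap between high and low libraries. LRRFIP2, for example, ranged from 98.6 to 173 CPM. On the opposite side stood SLC27A4 (-0.800), a fatty acid transport and activation gene, SF3B4, UBTF, GALNT15 and DDX54 (-0.763). HS3ST5 was the single gene among the 10 most like both members. These ranks depend on the measure, since Pearson's r of log2 CPM kept 2 of the 10 for ACSM5 and 6 of the 10 for CRYM. None of the genes named for likeness passed by edgeR in a comparison of dosing groups. DESeq2 called GALNT15 lower in single dose than in vehicle control libraries (log2 fold change -2.83, adjusted p = 0.0446). GALNT15 was uneven, from 2.13 to 74.1 CPM with a mean of 9.65 CPM. It was named for running against ACSM5, whose high libraries are all single dose, so this call is not a separate result.

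Markers of other cell types were set beside the members. Skeletal muscle, where mu-crystallin is abundant, was covered by 8 markers, of which 7 had a row. Their sum had a rank correlation of 0.699 with CRYM and 0.396 with ACSM5. It was 2.51 to 9.28 CPM in vehicle controls, 9.40 to 17.9 CPM in single dose and 2.86 to 46.9 CPM in multidose libraries. The most abundant of the list by its median was MYL1, a fast fibre and fetal light chain gene, at 1.09 to 45.4 CPM and highest in multidose 4 (rank correlation 0.691 with CRYM). In that library MYL1 gave 45.4 of the 46.9 CPM of the sum, so the sum and MYL1 are not separate results. MYBPC2, a fast fibre myosin-binding protein gene, was at 0.172 to 3.45 CPM (0.434 with CRYM) and the fast troponin gene TNNI2 at 0 to 0.714 CPM (0.120 with CRYM). The defining fast fibre myosins MYH1 and MYH4 did not exceed 0.102 and 0.0229 CPM in any library, and TNNT3 and ACTN3 did not exceed 0.134 and 0.291 CPM. At these low levels the rank correlations with CRYM were -0.401 for MYH1, 0.102 for MYH4, 0.340 for TNNT3 and -0.039 for ACTN3. Adipocyte markers (8 of 8 with a row) summed to 113 to 310 CPM in controls, 147 to 215 CPM in single dose and 129 to 312 CPM in multidose libraries. The adipocyte sum had a rank correlation of -0.179 with CRYM and -0.256 with ACSM5. Atrial muscle (7 of 8 markers with a row), conduction system and Schwann cell sums had rank correlations between -0.047 and 0.333 with CRYM. With ACSM5 these lay between 0.052 and 0.258. Smooth muscle and endocardial sums stood at -0.341 and -0.370 with CRYM, and at -0.197 and -0.428 with ACSM5. The hepatocyte sum stood at 0.358 with CRYM and 0.199 with ACSM5, and the kidney sum at -0.164 and 0.125. The part of these cell types in the members' levels was not tested.

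No enzyme gene around ACSM5 passed in a comparison of the groups. In its own family, ACSM3 was the only other gene tested, at 0.520 ± 0.216 CPM in multidose (SD, n = 7), 0.521 ± 0.177 CPM in single dose (SD, n = 5) and 0.261 ± 0.116 CPM in control libraries (SD, n = 5). Its log2 fold change against control was 0.97 in both dosed groups (SE 0.35 and 0.37, adjusted p = 0.367 and 0.891 by edgeR), from 9 to 25 counts per library. ACSM4 had 0 counts, and ACSM1, ACSM2A, ACSM2B and ACSM6 had no row under these symbols, so they were not analysed here. Among 17 tested genes of the other acyl-CoA synthetases, 0 passed in any comparison. For multidose against vehicle control, 9 were positive and 8 negative with a median of 0.06, led by ACSF2, a mitochondrial medium-chain synthetase gene (0.50, SE 0.20, adjusted p = 0.374 by edgeR), and ACSL3 (0.26, SE 0.14), a lipid droplet synthetase gene. For single dose against vehicle control 9 were positive and 8 negative, with the smallest p for the acetate activation genes ACSS3 (-0.27, SE 0.19) and ACSS1 (-0.49, SE 0.35). For multidose against single dose 14 were positive and 3 negative (median 0.08).

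Genes listed for the use of medium-chain acyl-CoA were mostly positive after dosing but within the spread of the animals. The list also holds beta-oxidation genes for other chain lengths, such as ACADVL, HADHA and ACADS, and genes of the carnitine shuttle and electron transfer. Its counts are therefore not particular to medium chains. Of 21 tested, 18 were positive for multidose against vehicle control (median 0.20) and 14 for single dose against vehicle control (median 0.09), beside a median of -0.0051 and 0.0025 over all genes, and 0 passed. DECR1, the reductase for unsaturated acyl-CoA, had 0.38 (SE 0.15, adjusted p = 0.370 by edgeR) and ECHS1, a hydratase of beta-oxidation, 0.59 (SE 0.26, adjusted p = 0.385 by edgeR) for multidose against vehicle control. ETFB, a subunit of the electron acceptor of the acyl-CoA dehydrogenases, had 0.33 (SE 0.16) for single dose against vehicle control. ACADM, the dehydrogenase for medium-chain acyl-CoA, measured 625 ± 94.6 CPM in multidose (SD, n = 7), 565 ± 101 CPM in single dose (SD, n = 5) and 589 ± 232 CPM in control libraries (SD, n = 5), with a rank correlation of -0.215 with ACSM5. The glycine conjugation gene GLYAT had 3 counts in all, and GLYATL2 was at 0.301 ± 0.178 CPM in single dose (SD, n = 5) against 0.102 ± 0.113 CPM in control libraries (SD, n = 5).

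No thyroid hormone gene around CRYM passed either. The nuclear receptor gene THRA measured 150 ± 25.7 CPM in multidose (SD, n = 7), 146 ± 14.5 CPM in single dose (SD, n = 5) and 142 ± 21.3 CPM in control libraries (SD, n = 5), and the second receptor gene, THRB, 40.1 ± 6.04, 46.2 ± 7.34 and 40.4 ± 11 CPM in the same order. THRB had the highest rank correlation of the list with CRYM (0.47), and stood at 0.600 with ACSM5. The median of the list was -0.108 with CRYM (lowest -0.409) and -0.104 with ACSM5, beside -0.0025 and 0 over all genes. The activating deiodinase gene DIO2 was at 3.62 ± 2.24, 3.23 ± 1.87 and 3.6 ± 3.67 CPM, and the inactivating deiodinase gene DIO3 had 56 counts in all. Of 17 tested genes of receptors, cofactors, deiodinases and transporters, 6 were positive and 11 negative for multidose against vehicle control (median -0.13), and 7 and 10 for single dose (median -0.15), with 0 called. The retinoid receptor gene RXRG (0.91, SE 0.32, adjusted p = 0.367 by edgeR) was among the 2 genes of this list with the smallest p for multidose.

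Genes that respond to thyroid hormone were counted by sign. The list mixes genes that the hormone raises with genes that it lowers. The split of signs and the median therefore cannot show whether a hormone response is present. Of 20 tested, 10 were positive and 10 negative for multidose against vehicle control (median -0.05), 12 and 8 for single dose (median 0.16), and 0 passed. MYH6 measured 880 ± 287 CPM in multidose (SD, n = 7), 823.1 ± 278 CPM in single dose (SD, n = 5) and 710 ± 338 CPM in control libraries (SD, n = 5). MYH7, the slow myosin gene that the hormone lowers, had -0.18 (SE 0.28) for multidose and -0.13 (SE 0.30) for single dose against vehicle control, and ATP2A2 had 0.24 (SE 0.25) and 0.15 (SE 0.27). PLN, the inhibitor of that pump, had 0.73 (SE 0.26, adjusted p = 0.367 by edgeR) for multidose, and the lipogenic gene THRSP 1.81 (SE 0.79, adjusted p = 0.891 by edgeR) for single dose. The rank correlation with CRYM was 0.304 for MYH6, 0 for MYH7 and 0.140 for ATP2A2. The highest of the list was 0.608, for the potassium channel gene KCND2, beside a list median of 0.044 and a lowest value of -0.667.

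Lysine and ketimine metabolism, the other setting of mu-crystallin, held 14 tested genes, of which 10 were positive for multidose against vehicle control (median 0.21) and 8 for single dose (median 0.05), with 0 called. HYKK, a hydroxylysine kinase gene, had 0.48 (SE 0.16, adjusted p = 0.366 by edgeR) and the proline synthesis gene PYCR1 -0.60 (SE 0.22, adjusted p = 0.367 by edgeR) for multidose. The highest rank correlation of this list with CRYM was 0.294, for HYKK, beside a list median of -0.070 and a lowest value of -0.603.

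**Figure D5:**
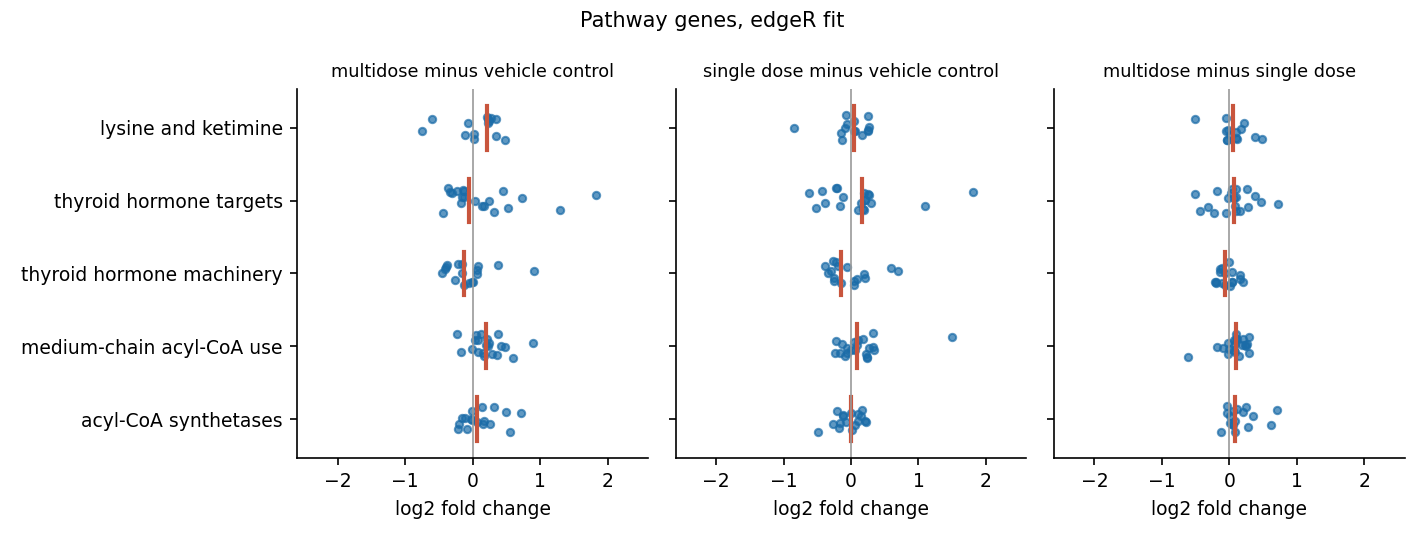
Log2 fold change of each tested pathway gene (points) and the median of its list (vertical bars) in the edgeR fit, for the 3 comparisons. The 5 lists shown have medians between -0.15 and 0.21, and no gene passed the threshold.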

How the data were processed

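The authors deposited raw counts per Ensembl gene for 17 libraries. Build Sscrofa11.1 and the tools Subread 1.6.2, SAMtools 1.7, HISAT2 2.1.0, Trimmomatic 0.33 and FastQC 0.11.7 are listed in the submitters' processing notes. The strand setting and the treatment of reads with several matches were not given in the sources used here. Replicates are separate animals per the series text. The members and gene lists were chosen with earlier results of these data known.

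In R 4.3.3 with edgeR 4.0.16, filterByExpr kept 15884 of 35670 rows. TMM scaling and 1 robust quasi-likelihood fit over all libraries gave two-sided tests, adjusted by Benjamini-Hochberg over all genes (threshold 0.05). Log2 CPM carry a prior count of 2. ACSM5 was kept past the filter for its own values. The 6 pathway lists hold 112 genes, 90 tested. Named genes are the 10 most and 5 least like each member by Spearman rank correlation over 17 libraries, the 2 with the smallest p per list and comparison, a fixed set of thyroid and acyl-CoA genes, and the 4 nearest tested genes on each side of the members with all between them. KDM5D, the skeletal muscle genes, KCND2, GLYAT and untested neighbours were named after their values were seen. Each standard error was derived from its fold change and F statistic. Alternatives were RLE and upper-quartile scaling, no filter, DESeq2 1.42.0, limma-voom (limma 3.58.1), a name covariate, M8 and M9 libraries alone, a replicate block, thinning and leaving out each library. Alternatives for the number of libraries above 1 CPM, for the neighbours, for ACSM5 and for the switch limits were chosen after seeing the data. The fit was tested on simulated data. Neighbours were matched by symbol, LDAF1, MOSMO and VPS35L by their current symbols. No sequences of the members were used here. A few genes that the naming rule selects are not reported here.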

Additional observations from a re-analysis of the deposited data

Results flagged for a closer look

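DNAH3 in single dose 4 measured 6.73 CPM, while the next highest single dose library measured 2.21 CPM, a gap of 0.71 of the range of that group. It was the only sample set apart in this way in 12 groups of libraries examined, 3 for each of ACSM5, CRYM, LDAF1 and DNAH3. Chance alone sets apart about 1 group in 20, a rate that need not hold for skewed CPM or for genes chosen for uneven levels. On log2 CPM, DNAH3 stood at 2.76 in single dose 4, 1.17 in the next single dose library and -1.27 in the lowest. Single dose 4 was also highest of all 17 libraries for CRYM, LDAF1 and DNAH3, but not for ACSM5.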

How the results depend on the processing

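Over all genes, 0 passed in each comparison by edgeR. DESeq2 called 8 for multidose and 10 for single dose against vehicle control, the latter including CRYM, whose choice used this contrast, and thinning to the shallowest total gave 1 for single dose against vehicle control. Replicate numbers are shared between groups but mark no common animal, and 4 of 15 same-numbered pairs had a correlation of deviations above 0.1 (-0.218 to 0.407). A replicate block gave 1 call for multidose against vehicle control. Leaving out each library gave 0 to 1 calls for single dose against vehicle control and 0 to 1 for multidose against single dose. Without single dose 2 the call was TSPOAP1. Without single dose 5, ACSM5 passes the filter through the group where it is high and is the gene called in both, which restates how it was chosen and supports nothing. For the pathway lists and the neighbours every alternative left 0 called. The log2 fold change of CRYM for multidose against vehicle control was 0.78 in the M8 and M9 libraries. ACSM5 exceeded 1 CPM in 3 libraries under every scaling and after thinning, and CRYM in 7 without TMM scaling or after thinning. Of the 10 genes most like ACSM5, 2 were kept with Pearson's r, 4 in the M8 and M9 libraries and 5 without TMM scaling, and for CRYM 6, 3 and 4. With switch limits of 2 CPM, of under 1 CPM, or in the M8 and M9 libraries alone, 6, 4 and 4 rows were found. The last set held CRYM as well as ACSM5. At these depths 1 count is worth 0.0149 to 0.0484 CPM, which limits ACSM5 in the low libraries.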
